A study of Mus musculus with 2 samples.

Results

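The genes of the Tie receptor system were followed through single yolk sac PK44 cells. They were the receptors *Tek* (the gene of Tie2) and *Tie1*, the ligands *Angpt1* and *Angpt2* (angiopoietin 1 and 2), and *Ptprb*, which encodes the endothelial receptor tyrosine phosphatase VE-PTP. These 5 genes were taken by symbol from the 23154 genes of the count tables, of which 13206 had a count in any cell. The cells came from the yolk sac of E10.0 mouse embryos of C57BL/6 background, and the labels name no genetic change or treatment. PK44 names the sort, which took cells without CD41, CD43 and CD45 and with CD31, CD201, Kit and CD44 at the surface, a combination that enriches for hemogenic endothelial cells, the endothelial cells from which blood cells arise. They were sequenced by a modified STRT-seq protocol, in which each cell is lysed on its own and the 3′ ends of its transcripts are counted, in 2 libraries that both belong to 1 group: replicate 1 with 43 cells and replicate 2 with 44 cells, 87 in all.

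Tie2 is a receptor tyrosine kinase of endothelial and early blood cells, and angiopoietin 1 is its activating ligand, usually supplied by cells around the vessel. Angiopoietin 2 is a context-dependent ligand that can weaken Tie2 signaling, and it is made by endothelial cells at sites of vessel remodeling. Tie1 binds no angiopoietin strongly and acts mainly through its association with Tie2, whereas VE-PTP removes phosphate from Tie2 and from the junction protein VE-cadherin. Runx1 is the transcription factor needed for endothelial cells to become blood cells, and its level was used below to divide the cells.

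Total counts were 8932527 in replicate 1, with a median of 141577 per cell (13218 to 702028), and 12706360 in replicate 2, with a median of 238898 per cell (51620 to 956593). No cell barcode was shared between the libraries. All 7 endothelial markers had counts in both libraries, with a summed level of 2252 CPM (counts scaled to a common library total of 1e6) in replicate 1 and 4152 CPM in replicate 2. *Ptprc*, which encodes the CD45 used to exclude blood cells, had a count in 3 cells. The 7 hematopoietic markers, *Runx1* among them, summed to 634 and 282 CPM. Low sums were found for 6 visceral endoderm genes (0 and 16.4 CPM), 5 erythroid genes (10.2 and 22.4 CPM), 4 megakaryocyte genes (4.81 and 47.5 CPM) and 4 macrophage genes (24.6 and 41.6 CPM). The 9 mesenchymal or mural genes summed to 876 and 366 CPM, and 2 cells of replicate 1 and 1 cell of replicate 2 were rich in collagen transcripts. The fits were also run without these cells, whereas the marker sums here and below include them.

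On the mouse genome (GRCm38, GENCODE M21), *Tek* lies on chromosome 4 from 94739289 to 94874976 on the plus strand, and *Tie1* lies on the same chromosome from 118471191 to 118490061 on the minus strand. *Ptprb* occupies chromosome 10 from 116275523 to 116389535 (plus strand). *Angpt1* occupies chromosome 15 from 42424723 to 42676977 (minus strand). *Angpt2* occupies chromosome 8 from 18690263 to 18741562 on the minus strand, inside the protein-coding gene *Mcph1* of the opposite strand. The sequence before the start of *Tek* is shown because *Tek*, the receptor of both ligands, is the gene around which the comparisons turn, and because cells are divided by *Runx1* in them. It is the 250 bases before the annotated start at chr4:94739039-94739288 (GRCm38.p6, plus strand, RefSeq), with the core of the motif bound by ETS factors, GGAA or its complement TTCC, in capitals.
Tek: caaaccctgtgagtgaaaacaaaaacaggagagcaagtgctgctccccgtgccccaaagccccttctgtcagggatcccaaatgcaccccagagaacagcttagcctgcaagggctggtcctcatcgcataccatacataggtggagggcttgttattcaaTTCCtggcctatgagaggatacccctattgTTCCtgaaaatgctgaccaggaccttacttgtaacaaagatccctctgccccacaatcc
Both strands counted, GGAA occurred 2 times in this window, and 93.4% of 32851 promoter windows of the same length held it, with a median of 3 matches. TGTGGT, a core sequence bound by Runx proteins, was not found in it, against 14.0% of all promoters on either strand. Neither motif contains the other, and a match is only a match of letters.

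Both receptors and the phosphatase were among the more abundant transcripts of PK44 cells, and the ligands ranked lower. In replicates 1 and 2, the ranks by CPM were 620 and 485 for *Tek*, 507 and 322 for *Tie1* and 448 and 368 for *Ptprb*. *Angpt1* ranked 1978 and 4871. *Tie1* reached 306 CPM in the first library and 474 CPM in the second, a mean of 390 ± 119 CPM (SD, n = 2 libraries). *Ptprb* was at 341 and 423 CPM (382 ± 58.4 CPM, SD, n = 2). *Tek* was at 266 and 337 CPM (302 ± 50.0 CPM, SD, n = 2). The order *Tie1*, *Ptprb*, *Tek* is the order of the means only, since *Ptprb* exceeded *Tie1* in replicate 1, and the means of these neighbors differed by less than the SD of either. The mean of *Ptprb* exceeded that of *Tek* by more than the SD of either, with no overlap of the values, whereas the values of *Tie1* and *Tek* overlapped. The 3′ protocol yields tags per transcript, so these levels were not divided by length.

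*Angpt1* followed, with 934 counts (105 CPM) in replicate 1 and 501 counts (39.4 CPM) in replicate 2, with a mean of 72.0 ± 46.1 CPM (SD, n = 2). Both of its values lay below all values of the receptors and *Ptprb*, and the ratio of replicate 2 to replicate 1 was 0.377 for *Angpt1*, against 1.27 for *Tek*, 1.55 for *Tie1* and 1.24 for *Ptprb*. *Angpt2* had 0 counts in replicate 1, where 3 counts would have been 0.336 CPM, and 10 counts (0.787 CPM) in replicate 2. *Runx1* was at 300 and 136 CPM.

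Within the libraries the levels spread widely from cell to cell. *Tek* ranged from 0 to 1106 CPM with a median of 310 CPM in replicate 1, and from 46.5 to 1302 CPM with a median of 269 CPM in replicate 2. *Tie1* ranged from 0 to 1860 CPM (median 120 CPM) in replicate 1 and from 48.2 to 1106 CPM (median 467 CPM) in replicate 2. *Ptprb* ranged from 0 to 1752 CPM (median 80.6 CPM) and from 3.93 to 1477 CPM (median 364 CPM). The median of *Tek* was thus slightly higher in the shallower replicate 1, while the medians of *Tie1* and *Ptprb* were several times lower there. In replicate 1 the lower quartile of *Ptprb* was 10.4 CPM and the upper quartile was 881 CPM. The order of the genes within a cell was not fixed, as *Tie1* exceeded *Tek* in 17 of 43 replicate 1 cells and 27 of 44 replicate 2 cells.

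**Figure D1:**
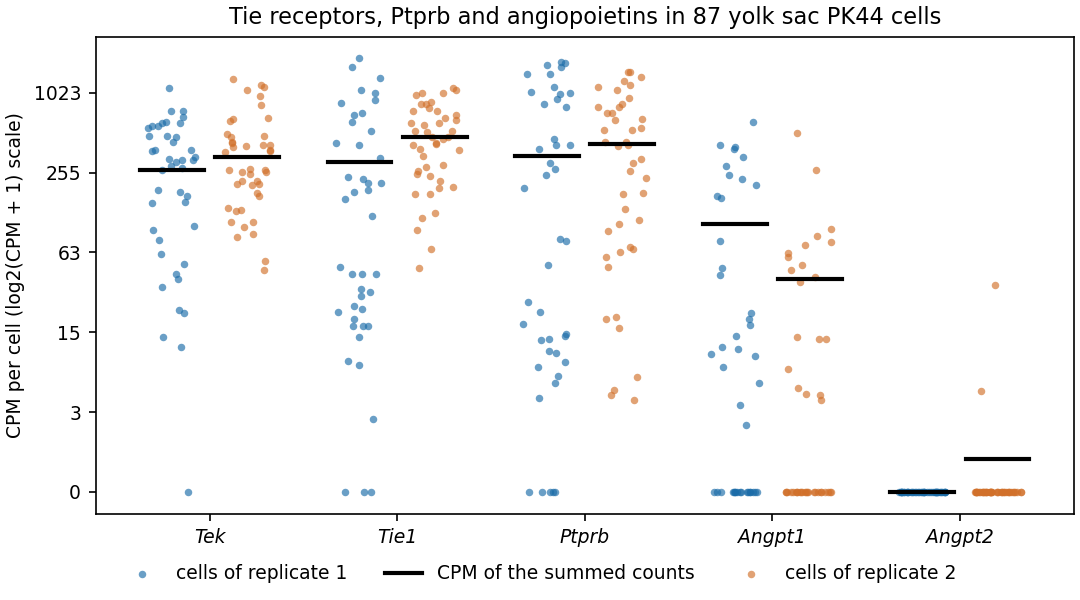
Level of each gene in every cell, in CPM on a log2(CPM + 1) axis, with 1 point per cell, replicate 1 in blue and replicate 2 in orange, and a black line at the CPM of the summed counts of the library. *Tek*, *Tie1* and *Ptprb* ranged from 0 CPM in replicate 1, or from 3.93 to 48.2 CPM in replicate 2, to maxima of 1106 to 1860 CPM, *Angpt1* had 17 cells at 0 in replicate 1 and 24 in replicate 2, and *Angpt2* was above 0 in 2 cells.

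Nearly every PK44 cell carried transcripts of both receptors. *Tek* had a count in 42 of 43 replicate 1 cells (97.7%, exact 95% interval 87.7% to 99.9%) and all 44 replicate 2 cells (100%, 92.0% to 100%). *Tie1* had a count in 40 of 43 cells (93.0%, 80.9% to 98.5%) and in 44 of 44 cells. *Ptprb* had a count in 38 of 43 cells (88.4%, 74.9% to 96.1%) and in 44 of 44 cells. These intervals cover counting error only. All 3 genes were present together in 79 of 87 cells, and no cell lacked all of them. A count of *Tek* without one of *Tie1* was seen in 3 cells, all of replicate 1, and the reverse in 1 cell.

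These shares depended on depth. When each cell was thinned to 20000 counts, which left out 1 shallow cell of replicate 1, *Tek* had a count in 35 of 42 cells (83.3%) and 44 of 44 cells. *Tie1* then had a count in 26 of 42 cells (61.9%, 45.6% to 76.4%) of replicate 1 and in 43 of 44 (97.7%, 88.0% to 99.9%) of replicate 2. *Ptprb* had one in 25 of 42 cells (59.5%) and 38 of 44 cells (86.4%). Thinning equalized total counts only, and each replicate is 1 library, so these shares are given side by side without a comparison.

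*Angpt1* was found in about 1 of 2 cells. It had a count in 26 of 43 replicate 1 cells (60.5%, 44.4% to 75.02%) and 20 of 44 replicate 2 cells (45.5%, 30.4% to 61.2%), and the intervals overlapped. After thinning it had one in 14 of 42 cells (33.3%) and 9 of 44 cells (20.5%). Its transcripts were concentrated: the 5 cells with the most counts held 62.7% of all *Angpt1* counts of replicate 1 and 76.4% of those of replicate 2, against 44.7% and 32.8% for *Tek*. A level of 10 counts or more was reached in 14 and 10 cells. The highest cell of replicate 1 had 176 counts (617 CPM) of *Angpt1*, together with 316 CPM of *Tek*, 214 CPM of *Tie1* and no *Ptprb*. The highest cell of replicate 2 had 145 counts (509 CPM), together with 260 CPM of *Tek*, 176 CPM of *Tie1* and 263 CPM of *Ptprb*.

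*Angpt2* was nearly absent. None of 43 cells of replicate 1 had a count, which allows a share of cells with a count of up to 6.98% (3 of 43 cells) or, by the exact 95% interval, 8.22%, and 2 of 44 cells of replicate 2 did (4.55%, exact 95% interval 0.555% to 15.5%). One of these cells had 9 counts (35.2 CPM) of *Angpt2* with 211 CPM of *Tek* and no *Angpt1*. The other had 1 count (4.82 CPM), and in it *Tek* was at 646 CPM, *Tie1* at 978 CPM, *Ptprb* at 1460 CPM and *Angpt1* at 72.3 CPM. *Mcph1*, which overlaps *Angpt2* on the opposite strand, was at 21.2 and 33.7 CPM and had counts in 31 cells. No comparison was made by *Angpt2*, for want of cells.

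In unthinned counts, nearly all cells with the ligand *Angpt1* also had the receptors. Of the 46 cells with *Angpt1*, 45 also had *Tek*, 45 had *Tie1* and 42 had *Ptprb*, and 41 had all 3. In replicate 1, 25 cells had both *Tek* and *Angpt1*, 17 had *Tek* alone and 1 had *Angpt1* alone. In replicate 2, 20 cells had both and 24 had *Tek* alone. Because *Tek* was in nearly all cells, this overlap was fixed by the share of *Angpt1*: *Angpt1* was in 52.3% of the cells with *Tek*. Thinned to 20000 counts, 21 cells had both, 58 had *Tek* alone, 2 had *Angpt1* alone and 5 had neither. Among the thinned cells, *Tie1* was in 73.9% of those with *Angpt1* and 82.5% of those without. *Ptprb* was in 52.2% of those with *Angpt1* and 81.0% of those without. All 3 collagen-rich cells, which had 7.81 to 46.4 CPM of *Angpt1*, also had *Tek*, at 51.3 to 82.6 CPM, and without them 42 of 84 cells had both.

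Few of the cells with at least 10 counts of *Angpt1* were above the library median of *Tek*. A pick by counts favors deep cells, and cells high in *Tek* had fewer counts, as given below. The part of depth was not tested. In the 14 cells of replicate 1 with at least 10 counts of *Angpt1*, *Tek* ranged from 13.6 to 607 CPM with a median of 162 CPM, and 4 of them exceeded the library median of 310 CPM. In the 10 such cells of replicate 2, *Tek* ranged from 54.0 to 832 CPM with a median of 215 CPM, and 2 of them exceeded the library median of 269 CPM. *Runx1* exceeded its library median in 12 of the 14 cells and in 7 of the 10. Rank correlation between *Tek* and *Angpt1* over thinned cells was −0.25 in replicate 1 (42 cells) and −0.02 in replicate 2 (44 cells). Cells of a library share their preparation and differ in depth, so all correlations over cells are given as descriptions, with no test.

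**Figure D2:**
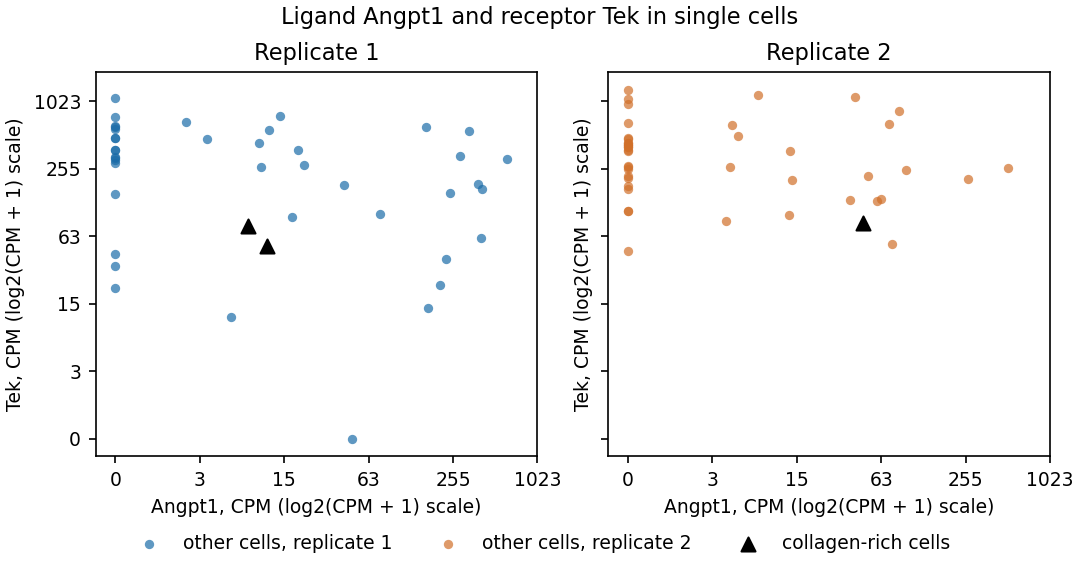
*Tek* (vertical) against *Angpt1* (horizontal) in CPM on log2(CPM + 1) axes, with 1 point per cell, replicate 1 on the left and replicate 2 on the right, and black triangles for the 3 collagen-rich cells. The column of points at 0 holds the cells without *Angpt1*, and 1 cell of replicate 1 with *Angpt1* has no *Tek*.

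Across the cells of both libraries, *Tek* followed *Ptprb* more closely than it followed *Tie1*. Over thinned cells the rank correlation of *Tek* and *Ptprb* was 0.57 in replicate 1 and 0.37 in replicate 2. That of *Tek* and *Tie1* was 0.11 and 0.22, and that of *Tie1* and *Ptprb* was 0.23 and 0.38. When cells were divided at the library median of each gene, 16 cells of replicate 1 were high in both *Tek* and *Ptprb*, 17 were low in both and 10 were high in one only. The numbers in replicate 2 were 15, 15 and 14. For *Tek* and *Tie1* the cells high in one only were 18 of 43 and 20 of 44.

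Among 2936 genes with a count in at least 30% of the thinned cells of each library, the genes most like *Tek* by the lower of the 2 correlations were *Clec14a* (0.65 and 0.51), which encodes an endothelial C-type lectin receptor, *Calcrl* (0.63 and 0.49), the receptor of adrenomedullin, the basement membrane collagen *Col4a1* (0.47 and 0.52), *Aplp2* (0.47 and 0.46) and *Sparc* (0.55 and 0.45). Those most like *Ptprb* were *Acer2* (0.71 and 0.54), *Sdpr* (0.60 and 0.50), *Col4a1* (0.54 and 0.46), *Nfib* (0.46 and 0.50) and *Cdh5* (0.47 and 0.46), the gene of VE-cadherin. For *Tie1* the leading genes were *Itga5* (0.45 and 0.37), *Bmpr2* (0.31 and 0.35), *Anxa2* (0.31 and 0.35), *Ssh2* (0.32 and 0.31) and *Rac1* (0.31 and 0.46). The lower correlations for *Tie1* were thus weaker than those for *Tek* and *Ptprb*, and *Col4a1* stood in the first 5 of both of the latter. *Angpt1* was too sparse to pass the same 30% filter, and the genes leading its order, *Nol8*, *Cpne3*, *Ctps*, *Ecd* and *Rpl38*, had lower correlations of 0.34 to 0.43. Counts without thinning shared 2, 1, 3 and 1 of the first 5 genes for *Tek*, *Tie1*, *Ptprb* and *Angpt1*.

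To ask how the Tie genes differ between cells with much and little *Runx1*, the cells of each library were divided at the median *Runx1* level, which was 52.2 CPM in replicate 1 and 10.03 CPM in replicate 2. Counts were summed per library and part, so that 2 sums of *Runx1*-high cells (21 and 22 cells) were compared with 2 sums of *Runx1*-low cells (22 and 22 cells). The groups are ranges of a level, not cell types, and 11 and 9 cells lay within 2-fold of the medians. *Runx1*-high cells were deeper. Their median depth was 260240 counts per cell, against 95376 in *Runx1*-low cells, for replicate 1, and 271734 against 213444 for replicate 2. The part of depth in the results was not tested, except by thinning as given below.

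*Tek* and *Ptprb* were at lower levels in the *Runx1*-high groups of both libraries. *Ptprb*, in CPM scaled by TMM as in the fit, was at 224 CPM in *Runx1*-high and 574 CPM in *Runx1*-low cells of replicate 1, and at 208 and 732 CPM in replicate 2. Per cell of replicate 2 it ranged from 3.93 to 844 CPM with a median of 155 CPM in *Runx1*-high cells, and from 4.87 to 1477 CPM with a median of 723 CPM in *Runx1*-low cells. The sums did not overlap between the groups, although the ranges of the cells did. With 2 sums in each group, such a gap is no support by itself, here or below. Its share over all genes was not counted. The log2 fold change was −1.59 (SE 0.38), with −1.35 and −1.81 in the single libraries. In edgeR's quasi-likelihood test over 10629 genes this did not pass after Benjamini-Hochberg adjustment (adjusted p = 0.675), and with the library as a block it did (log2 fold change −1.59, SE 0.34, adjusted p = 0.000579). The background was 1 called gene (0.00941% of those tested) without the block and 166 (1.56%) with it, 126 of them lower (1.19%).

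*Tek* was at 191 CPM in *Runx1*-high and 419 CPM in *Runx1*-low cells of replicate 1, and at 213 and 512 CPM in replicate 2. Its sums did not overlap between the groups either. In single cells of replicate 1 it ranged from 0 to 607 CPM (median 182 CPM) among *Runx1*-high and from 21.2 to 1106 CPM (median 378 CPM) among *Runx1*-low cells. The log2 fold change was −1.20 (SE 0.39), with −1.13 and −1.26 in the single libraries, and edgeR gave an adjusted p of 0.780 without the block and 0.0464 with it. DESeq2 without a block called *Ptprb* (adjusted p = 0.00552) and not *Tek* (adjusted p = 0.111), among 128 called genes of 10010 (1.28%).

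*Tie1* and *Angpt1* were not called in any fit of this comparison, which with 4 sums does not show that their levels were alike. *Tie1* was at 268 against 389 CPM in *Runx1*-high and *Runx1*-low cells of replicate 1 and at 412 against 553 CPM in replicate 2, so its sums overlapped (log2 fold change −0.47, SE 0.41, edgeR adjusted p = 0.9995, and 0.822 with the block). Within each library the log2 fold change of *Tek* was below that of *Tie1*, by 0.60 and 0.84 log2 units, and that of *Ptprb* was below it by 0.82 and 1.39. These differences between genes were not tested. *Angpt1* was at 113 against 92.6 CPM in replicate 1 and at 53.1 against 17.8 CPM in replicate 2 (log2 fold change 0.59, SE 0.83, edgeR adjusted p = 0.9995). It had a count in 16 of 21 *Runx1*-high and 10 of 22 *Runx1*-low cells in the first library, whereas either group of the second had 10 of 22.

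**Figure D3:**
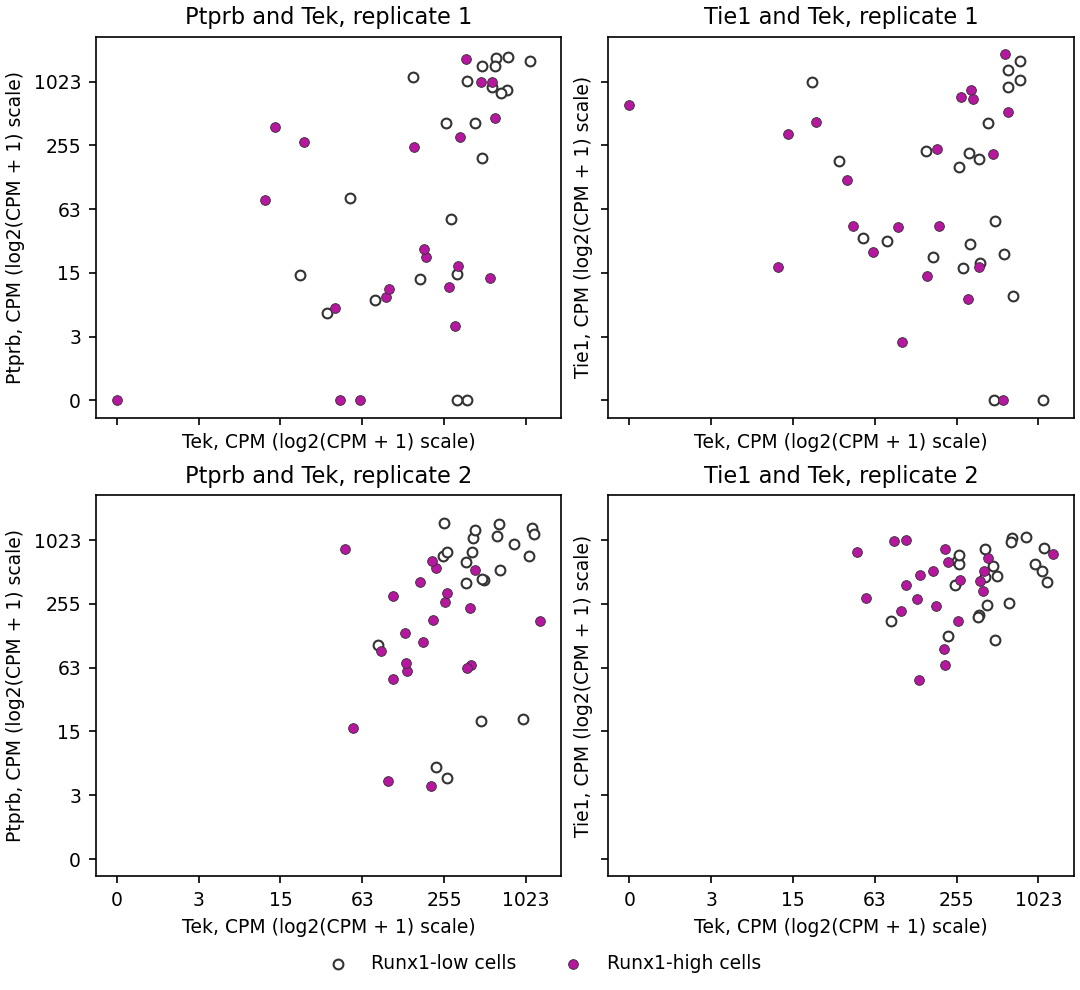
*Ptprb* (left) and *Tie1* (right) against *Tek* in CPM on log2(CPM + 1) axes, with 1 point per cell, replicate 1 above and replicate 2 below, filled for *Runx1*-high and open for *Runx1*-low cells. Open points gather at the upper right of the *Ptprb* panels, where *Tek* and *Ptprb* are both high. Counted over filled and open points together, 16 and 15 cells lay above both medians.

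Without the 3 collagen-rich cells, which all fell into the *Runx1*-low groups, the log2 fold changes with the block were −1.65 for *Ptprb* (edgeR adjusted p = 0.000828) and −1.32 for *Tek* (adjusted p = 0.0307). With cells thinned to 20000 counts and divided again, they were −1.19 (adjusted p = 0.361) and −1.11 (adjusted p = 0.388), and neither was called. Endothelial markers moved with the groups. The 7 of them summed to 1609 CPM in *Runx1*-high against 3421 CPM in *Runx1*-low cells of replicate 1 and to 3155 against 5638 CPM in replicate 2, and all 7 had a negative log2 fold change, with a median of −0.78. The 6 hematopoietic markers other than *Runx1* summed to 312 against 373 CPM and to 199 against 66.4 CPM. Their median log2 fold change was 1.82, with 4 positive and 2 negative (*Itga2b* −2.30 and *Myb* −0.53), and none was called. The 9 mesenchymal or mural markers summed to 71.0 against 2339 CPM and to 48.1 against 839 CPM. *Col1a1*, which is among them, was the only gene called without the block (log2 fold change −5.66, SE 0.58, edgeR adjusted p = 0.0332). When the collagen-rich cells were left out, no gene was called without the block. In the list of mesenchymal or mural markers *Cspg4* had no count in any cell and *Rgs5* had none in replicate 1. The part of these markers in the differences of *Tek* and *Ptprb* was not tested.

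The pathway lists gave few calls. None of the 11 tested genes of angiopoietin-like proteins and extracellular partners, of the 24 in the Tie2 intracellular pathway, of the 8 of the VE-cadherin complex and VE-PTP substrates or of the 7 Foxo1-linked endothelial genes was called without the block. Their median log2 fold changes were −0.65, −0.27, −0.95 and 0.41, beside −0.007 over all genes. With the block, 2 of the 8 genes of the VE-cadherin and VE-PTP list fell in *Runx1*-high cells and none rose. Of all genes tested, 1.19% fell. The 2 genes of the list were *Kdr*, the VEGF receptor 2 gene (168 against 834 CPM and 416 against 782 CPM, log2 fold change −1.61, SE 0.33, edgeR adjusted p = 0.000247), and *Cdh5* (314 against 763 CPM and 426 against 922 CPM, −1.20, SE 0.31, adjusted p = 0.0115). Both are also among the endothelial markers, which moved with the groups. No gene of the other pathway lists was called with the block. Among the partners, the integrin gene *Itgb1* was at 206 against 437 CPM and at 363 against 781 CPM.

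Dividing the cells by *Tek* itself showed the same relation from the side of the receptor. *Tek* was the dividing gene and was not tested. In the *Tek*-high groups (21 and 22 cells), *Ptprb* was at 793 CPM against 104 CPM in *Tek*-low cells of replicate 1 and at 627 against 276 CPM in replicate 2, with no overlap of the sums. The log2 fold change was 1.90 (SE 0.51), with 2.93 and 1.18 in the single libraries. It passed in edgeR with the library as a block (2.05, SE 0.34, adjusted p = 1.45e-06) and in DESeq2 (adjusted p = 0.0168), and not in edgeR without the block (adjusted p = 0.891). The background was 0 of 10591 genes (0%) without the block, where 579 had an unadjusted p under 0.05, 205 (1.94%) with it, of which 146 rose (1.38%), and 64 (0.616%) by DESeq2. *Tek*-high cells had fewer counts. Their median depth was 87289, against 214936 in *Tek*-low cells, for replicate 1, and 207920 against 270476 for replicate 2, and 24 and 26 cells lay within 2-fold of the medians.

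*Tie1* was at 603 against 153 CPM in *Tek*-high and *Tek*-low cells of replicate 1 and at 519 against 431 CPM in replicate 2, and it was not called (log2 fold change 0.94, SE 0.51, edgeR adjusted p = 0.903, and 0.0526 with the block). *Runx1* was at 179 against 377 CPM and at 29.5 against 203 CPM (log2 fold change −1.48, SE 0.76, adjusted p = 0.903, and with the block −1.92, SE 0.44, adjusted p = 0.00164). With cells thinned to 20000 counts and divided again it was not called even with the block (−1.58, edgeR adjusted p = 0.124), nor was it by DESeq2 (adjusted p = 0.520). These values share their cells with the division by *Runx1* and are no separate evidence. *Angpt1* differed by −0.20 log2 units in replicate 1 and by −2.30 in replicate 2, at 11.3 against 57.0 CPM in the latter, and was not called (fit −0.64, SE 0.92, adjusted p = 0.997). Without the collagen-rich cells, and with the medians set anew, its fit was −1.83, again without a call.

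With the block, members of 3 lists rose in *Tek*-high cells, where 1.38% of all genes tested rose. In the VE-cadherin and VE-PTP list 3 of 8 rose. These were *Ctnna1*, which encodes alpha-catenin (559 against 104 CPM and 410 against 175 CPM, log2 fold change 1.83), *Kdr* (808 against 179 CPM and 847 against 370 CPM, 1.68) and *Cdh5* (884 against 247 CPM and 934 against 414 CPM, 1.51), with edgeR adjusted p values of 0.000168, 4.63e-05 and 0.000178. Among the extracellular partners, 2 of 10 rose, *Itgb1* (459 against 194 CPM and 786 against 357 CPM, adjusted p = 0.0181) and *Mmrn2*, an endothelial matrix protein gene (277 against 104 CPM and 363 against 159 CPM, adjusted p = 0.0485). In the intracellular pathway 1 of 23 rose, a count too small to be read against that background, the flow-responsive transcription factor *Klf2* (397 against 130 CPM and 471 against 252 CPM, adjusted p = 0.0291). None of these 6 was called without the block. The medians of the 4 lists without the block were 0.50, 0.43, 1.39 and 0.09, beside 0.01 over all genes. *Spi1*, the blood transcription factor PU.1, was at 5.16 against 234 CPM and at 9.52 against 90.6 CPM (log2 fold change with the block −4.32, adjusted p = 5.64e-07). The 7 hematopoietic markers, which include it and *Runx1*, summed to 338 against 799 CPM and to 87.6 against 413 CPM, the 7 endothelial markers to 3923 against 1317 CPM and to 5463 against 3273 CPM, and the 9 mesenchymal or mural markers to 72.7 against 1327 CPM and to 46.1 against 580 CPM. The collagen-rich cells of both libraries fell into the *Tek*-low groups. The part of these markers in the differences of *Ptprb* and *Tie1* was not tested.

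Dividing the cells by the ligand gave no call among the members. In replicate 2 the median of *Angpt1* was 0, so that the 20 cells with any count were compared with the 24 without. *Tek* was at 179 against 433 CPM in *Angpt1*-high and *Angpt1*-low cells of replicate 1 and at 287 against 378 CPM in replicate 2 (log2 fold change −0.80, SE 0.42). *Ptprb* was at 167 against 661 CPM in replicate 1 and at 408 against 424 CPM in replicate 2, so that its log2 fold change was −1.98 in one library and −0.06 in the other. *Tie1* differed by −1.32 and −0.16 log2 units. All 3 had an edgeR adjusted p of 0.9995, and none was called with the block, where the adjusted p values were 0.994 for *Tek*, 0.947 for *Ptprb* and 0.9999 for *Tie1*. The background was 0 of 10702 genes (0%) by edgeR without the block, where 318 had an unadjusted p under 0.05, 1 (0.00934%) with it, the selenoprotein gene *Sepp1*, and 26 (0.269%) by DESeq2. *Angpt1*-high cells were the deeper ones. Their median depth was 230059, against 108625 in *Angpt1*-low cells, for replicate 1, and 253864 against 213444 for replicate 2. Endothelial markers summed to 1440 against 3617 CPM and to 3516 against 4846 CPM, hematopoietic markers to 687 against 543 CPM and to 378 against 178 CPM, and mesenchymal or mural markers to 835 against 946 CPM and to 669 against 35.7 CPM. Each group of replicate 1 held 1 collagen-rich cell, and that of replicate 2 was *Angpt1*-high. Thinned to 20000 counts and divided by detection of *Angpt1*, replicate 2 held 9 cells with it and 35 without, too few for a fit. *Tek* was then at 243 against 386 CPM in replicate 1 and at 383 against 373 CPM in replicate 2. *Tie1* was at 236 against 343 CPM and at 506 against 461 CPM. *Ptprb* was at 171 against 536 CPM and at 356 against 506 CPM. The part of depth and of these markers in the values was not tested.

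**Figure D4:**
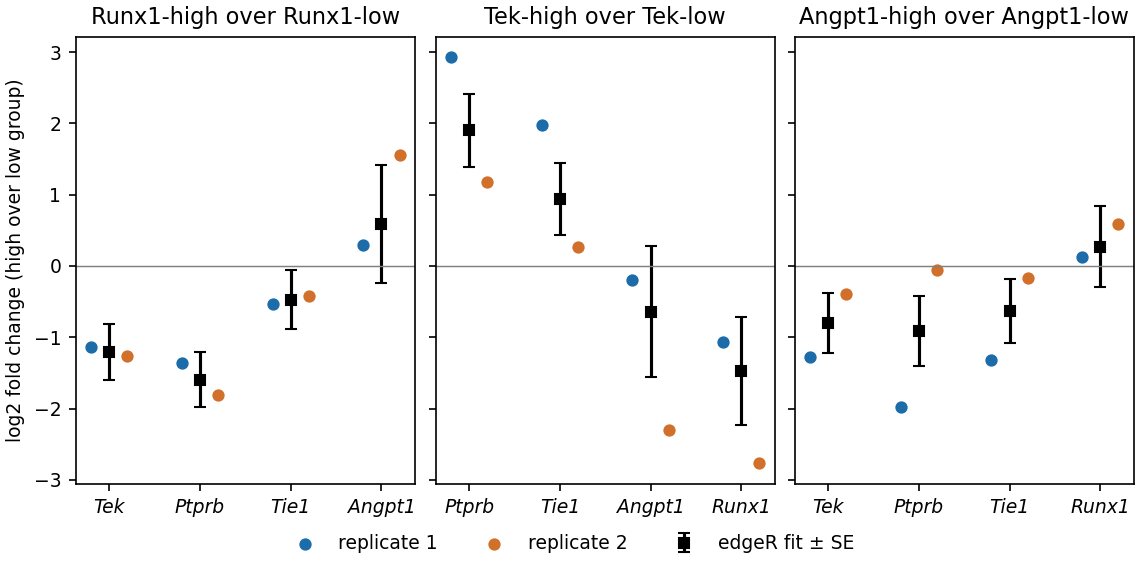
Log2 fold changes between the high and the low group of cells, divided by *Runx1* (left), *Tek* (middle) and *Angpt1* (right), with the edgeR fit without a block as black squares with bars of 1 SE and the single libraries as blue (replicate 1) and orange (replicate 2) points. *Tek* and *Ptprb* lie below 0 in both libraries of the *Runx1* division, at −1.13 and −1.26 and at −1.35 and −1.81, whereas the libraries lie far apart for *Ptprb* in the *Angpt1* division.

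The pathway around the receptors was present in these cells at graded levels. Of the other ligand-related genes, *Angpt4* and *Angptl7* had no count in any cell, and *Angptl2*, the most widespread of the angiopoietin-like genes, had one in 27 cells at 6.16 and 13.3 CPM. The integrin genes *Itgb1* (282 and 537 CPM) and *Itga5* (191 and 242 CPM), whose products can bind angiopoietins, were found in 84 and 75 cells. *Adam10* (165 and 138 CPM) and *Adam17* (69.7 and 67.2 CPM), proteases that shed cell surface receptors, were found in 77 and 76 cells. Inside the cell, *Akt1* was at 150 and 173 CPM, *Foxo1*, which Akt keeps out of the nucleus, at 104 and 115 CPM, and *Dok2*, which encodes an adaptor recruited by Tie2, at 82.3 and 61.2 CPM. *Foxo3* and *Grb7* had no count. Of the VE-cadherin and VE-PTP list, *Cdh5* was in all 87 cells at 463 and 632 CPM, and *Kdr* was in 78 cells at 393 and 570 CPM.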

How the data were processed

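Per the methods and labels, the authors split reads by cell barcode, aligned them to mm10 with HISAT2 2.1.0, counted uniquely mapped reads with HTSeq and collapsed them by UMI, and they kept cells with more than 2000 genes, although 1 deposited cell had fewer. The deposited tables hold raw counts per gene and cell, without normalization. The strand setting is not given in the sources used here, and the counts do not tell if UMI duplicates remain. All 87 cells entered. Doublets were not called in these individually picked cells, from which the authors had removed those with too many reads or genes.

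Counts were divided by cell or library totals to give CPM. Cells were divided at the library median of 1 gene, counts were summed per library and group (4 sums), and the sums were tested with edgeR 4.0.16 in R 4.3.3 (quasi-likelihood test after filterByExpr and TMM scaling, with Benjamini-Hochberg adjusted p below 0.05 over all genes tested), without a library block. Alternatives were the block, DESeq2 1.42.0, DESeq2 size factors, no filter, thinning to 20000 counts, leaving out collagen-rich cells (at least 100 counts each of *Col1a1*, *Col1a2*, *Col3a1* and *Lum*) or a library, and a division by detection. Intervals are exact (Clopper-Pearson). Sums of equal number are made of cells of 1 library and are thus paired, and their deviations from the group means correlated at 0.197, 0.182 and 0.196 in the divisions by *Runx1*, *Angpt1* and *Tek*. The fit without the block had 2 residual degrees of freedom and the block left 1, and the across-gene prior was then infinite for *Runx1* and *Tek*, so those p-values rest almost wholly on the spread across genes. Nothing says that the libraries came from separate litters, so the spread behind the p-values, between these sums or across genes, may be technical.

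Genes named were the 5 members, *Runx1*, any gene of the lists and markers, the 5 genes most like each member, and called genes of largest change. Members and lists were chosen with earlier results of these data known. Symbols matched GENCODE M21 for 22127 of 23154 genes. No table of protein sequences was used here. Promoter windows were found for 2 of the 5 members, *Tek* and *Tie1*. That of *Tie1* overlaps its annotated gene and is not shown (7 matches of GGAA and 0 of TGTGGT). The fits were first tested on simulated counts with known changes.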

Additional observations from a re-analysis of the deposited data

How the results depend on the processing

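The counts of called genes moved most. In the *Runx1* division 1 gene was called, against 166 with the library as a replicate block, 128 by DESeq2, 67 without the low-count filter and 4 after thinning (4 with the block). Without the collagen-rich cells it was 0 (edgeR, 555 at an unadjusted p under 0.05) and 147 with the block, and in a division by detection in thinned cells 4 and 77 with the block. In the *Angpt1* division 0 were called, against 1 with the block, 26 by DESeq2, 2 without the filter and 3 without collagen-rich cells and with the block. In the *Tek* division 0 were called, against 205 with the block, 64 by DESeq2, 58 without the filter, 3 and with the block 111 after thinning, and 227 without collagen-rich cells with the block. The combinations of the block with other settings were chosen after seeing the data.

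Calls of members that appeared only under an alternative were *Ptprb* in the *Runx1* division (−1.59 with the block, −1.62 by DESeq2, −1.65 with the block and without collagen-rich cells) and *Tek* (−1.20 and −1.32 under the first and the last of these). In the *Tek* division they were *Ptprb* (2.05 with the block, 1.92 by DESeq2, 1.88 without the filter, 1.62 thinned with the block, 2.14 with the block and without collagen-rich cells) and *Runx1* (−1.92 with the block, −2.10 without collagen-rich cells as well). The cause was not tested. The block changed no other member's call. No member's fold change turned sign in the settings fitted. The thinned *Angpt1* groups were not fitted, and in replicate 2 they had *Tek* and *Tie1* slightly higher with *Angpt1*. Over the settings fitted, *Ptprb* ran from −1.81 to −0.87 and *Tek* from −1.32 to −0.99 in the *Runx1* division, and *Tie1* from −0.66 to −0.20. In the *Tek* division *Angpt1* ran from −2.51 to −0.20 without a call.

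Shares of cells with a count depended on the minimum and on depth. *Tek* was at 98.9%, and at 91.9% thinned and 87.4% with at least 10 counts. *Tie1* was at 96.6%, 80.2% and 73.6%, and *Ptprb* at 94.3%, 73.3% and 67.8% (86.2% with at least 2 counts). *Angpt1* was at 52.9%, 26.7% and 27.6% (39.1% with at least 2), and *Angpt2* at 2.30% and at 0% with at least 10. Without one or the other replicate the range was 97.7% to 100% for *Tek*, 93.0% to 100% for *Tie1*, 88.4% to 100% for *Ptprb* and 0% to 4.55% for *Angpt2*. *Tek* with *Angpt1* was at 51.7%, 24.4% thinned, 39.1% with at least 2 and 24.1% with at least 10. *Tie1* with *Angpt1* was at 51.7%, 19.8%, 36.8% and 20.7%. *Tek* with *Tie1* was at 95.4%, 75.6% thinned and 66.7% with at least 10 (90.7% to 100% over single replicates). The mean of single-cell CPM was 358 for *Tek*, 416 for *Tie1* and 460 for *Ptprb*, which puts *Ptprb* above *Tie1*. Without thinning, 2, 1, 3 and 1 of the first 5 genes like *Tek*, *Tie1*, *Ptprb* and *Angpt1* were shared. The *Angpt2* division, the thinned and detection divisions by *Angpt1* and the detection division by *Tek* were not run, as a group held fewer than 10 cells.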
